A study of Homo sapiens with 6 samples.

Results

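The 10 genes described here encode the kinases that stop or slow the cell cycle when DNA is damaged or replication stalls, with the proteins that activate them: *ATM*, *ATR*, *PRKDC*, *CHEK1*, *WEE1* and *PKMYT1* for the kinases, and *ATRIP*, *TOPBP1*, *CLSPN* and *TIMELESS* for their partners. They were chosen by name, and each matched 1 Ensembl identifier among the 60483 genes of the count table. RNA had been sequenced from A2780 cells, an ovarian carcinoma line, with 3 libraries of the parental cells (WT) and 3 of the A2780 *CDK12* KO line. KO cells carry CRISPR/Cas9 edits in exon 1 of *CDK12* and all come from 1 clone, isolated after successive rounds of transfection, while WT cells were the parental line. Neither group was treated, and both were kept in the same RPMI medium, so the values describe basal expression. Nothing in the labels says that the libraries of a group came from separate cultures, so that p-values measure the spread between these libraries, which may be technical.

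ATR and ATM are large kinases of the PI3K-like family, to which DNA-PKcs, the product of *PRKDC*, also belongs. ATM and DNA-PKcs respond to double-strand breaks. ATR is brought by its partner ATRIP to single-stranded DNA coated with RPA, where TOPBP1 activates it. ATR then phosphorylates CHK1, the product of *CHEK1*, with claspin (*CLSPN*) as the mediator and the TIMELESS-TIPIN complex travelling with the replication fork. CHK1 restrains the CDC25 phosphatases, and WEE1 and MYT1 (*PKMYT1*) place the inhibitory phosphates that CDC25 removes from the cyclin-dependent kinases. CDK12, which phosphorylates RNA polymerase II, is known for its part in the transcription of long DNA damage response genes. The study also exposed both lines to inhibitors of ATR, CHK1, WEE1 and ATM, so the basal RNA of these targets is what the comparison describes. By RT-PCR, the study found *CHEK1* and *WEE1* RNA partly lowered in KO cells. Its western blots showed no significant change of either protein. *ATM* and *ATR* were measured by both methods too, and the study's text names no change of either. KO cells were reported as less sensitive to the ATR inhibitor, and as similarly sensitive to those of CHK1, WEE1 and ATM. Any tie between these responses and the RNA levels was not tested.

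The libraries held between 11098400 and 30899045 counts, WT replicate 3 having the fewest, and 3 counts corresponded to 0.0971 to 0.270 CPM (counts of a gene scaled to library size), a floor for counting error alone. Chi-square divided by its degrees of freedom ran from 1.72 to 7.05 for pairs of libraries within a group, above counting error. *CDK12* itself had 103, 126 and 116 CPM in WT and 99.0, 93.0 and 102 CPM in KO, a log2 change of -0.23 (edgeR, adjusted p = 8.2e-04). Counts per gene do not tell edited from unedited transcripts, so they do not check the knock-out. The study's own check was by sequencing and by western blot, where antibodies to either end of CDK12 found no protein in KO cells. The 8 epithelial and ovarian markers summed to between 68.5 and 74.0 CPM in WT and between 115 and 119 CPM in KO. Of these, *KRT18* rose by 0.78 and *KRT8* by 0.57 on the log2 scale and *EPCAM* fell by 0.53 (edgeR, adjusted p = 0.0119 for *EPCAM*). *MUC16* had at most 3 counts in every library. *PAX8* and *WT1* had at most 3 in every KO library, but were also near the floor in WT, with 6, 6 and 2 counts and 2, 6 and 0 counts. *CDH1* had 0 to 4 and *KRT19* 2 to 11 counts per library. The summed level of the 4 leukocyte markers lay between 0.601 and 1.04 CPM over all libraries, and that of the 3 endothelial markers between 0.0730 and 0.30 CPM in WT and between 0.674 and 0.891 CPM in KO. The 5 fibroblast and muscle markers, nearly all of it *COL1A2* and *COL1A1*, summed to between 5143 and 5276 CPM in WT and between 2682 and 2816 CPM in KO; the part of these marker differences in the results below was not tested. Levels are relative to all RNA of a library. A smaller share of cells in a cell cycle phase and less RNA per cell cannot be told apart in bulk RNA, nor can RNA per cell be measured from such counts. By flow cytometry, the study reported a similar cell cycle distribution in both lines and a doubled DNA content in the clone.

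*ATR* and its effector *CHEK1* moved in opposite directions in KO cells. *ATR* was higher, *CHEK1*, *CLSPN*, *TIMELESS*, *WEE1* and *PKMYT1* were lower, and *ATM* and *TOPBP1* were slightly higher. Of the 9 members that could be tested, 3 were higher in KO at an adjusted p under 0.05 (33.3%, against 31.9% of all 16198 genes tested) and 5 were lower (55.6%, against 32.0%). *PRKDC* did not pass the test and *ATRIP* had too few counts for it. All changes were small. None of the 9 passed the thresholds of the study's methods, an adjusted p under 0.05 with a log2 value beyond 1 in either direction, which 8.30% of the tested genes passed upwards and 7.73% downwards. The median absolute log2 change was 0.22 over the 9 members and 0.32 over all genes tested. For 7 of the 9 (77.8%) the KO libraries did not overlap the WT libraries, compared with 66.4% of all genes tested. With this many genes called, a share near the background says nothing particular about the pathway.

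**Figure D1:**
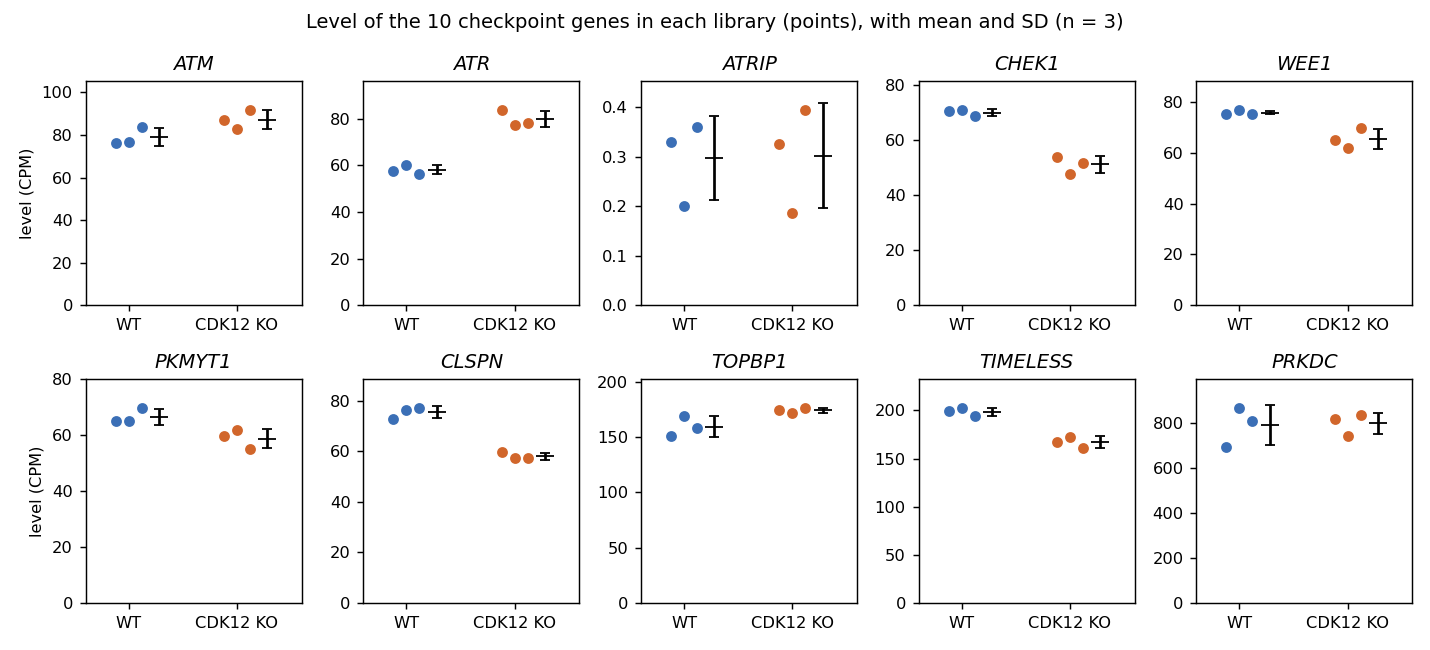
Level of each of the 10 genes in CPM (vertical axis, from 0, a different scale in each panel) in the 3 WT and 3 CDK12 KO libraries; points are libraries, and the black mark with bar is the mean ± SD (n = 3). The KO points of ATR lie above all WT points and those of CHEK1, CLSPN, TIMELESS, WEE1 and PKMYT1 below them, while the 2 groups overlap for ATM and PRKDC, and ATRIP stays under 0.4 CPM.

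*ATR*, on the minus strand of chromosome 3 from 142449007 to 142578733 (GRCh38), encodes the apical kinase of the replication checkpoint. Its level was 57.7, 60.1 and 56.2 CPM in the WT libraries and 83.6, 77.3 and 78.1 CPM in the KO libraries. The lowest KO library was thus well above the highest WT library. The mean rose from 58.0 ± 1.97 to 79.7 ± 3.39 CPM (SD, n = 3 each). The edgeR fit gave a rise of 36.9%. On the log2 scale this was 0.45 ± 0.0534 (SE), with an adjusted p of 7.57e-09 by the quasi-likelihood test of edgeR (Benjamini-Hochberg over all genes tested). An exact permutation test of the same 6 values gave p = 0.1, two-sided, the smallest p that 3 libraries against 3 allow. Leaving out any library kept the log2 change between 0.42 and 0.48.

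*TOPBP1*, the activator of ATR, lies on the same chromosome from 133598175 to 133662380. It was found at 151, 169 and 158 CPM in WT and at 175, 172 and 177 CPM in KO. The groups did not overlap, but the highest WT library came close to the lowest KO library, and the log2 change of 0.13 (SE 0.0494) had an adjusted p of 0.0266 (edgeR). This call depended on single libraries, its adjusted p running from 0.00472 to 0.185 over 13 alternative settings of edgeR, voom/limma and DESeq2. Without WT replicate 1 the log2 change was 0.08 (edgeR, adjusted p = 0.185), and without WT replicate 3, KO replicate 1 or KO replicate 3 it was 0.12 each time (edgeR, adjusted p = 0.0856, 0.0784 and 0.0848).

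*ATM*, at chromosome 11 (plus strand), 108223044 to 108369102, encodes the kinase that responds to double-strand breaks. WT libraries had 76.1, 76.8 and 83.7 CPM and KO libraries 87.3, 82.8 and 91.6 CPM. The highest WT library exceeded the lowest KO library, so the groups overlapped. The log2 change was 0.15 (SE 0.0538, 95% interval 0.04 to 0.26, adjusted p = 0.0151 with edgeR), and the exact permutation test gave p = 0.2, two-sided. Without KO replicate 3 the log2 change was 0.12 (edgeR, adjusted p = 0.102), and the adjusted p was also over the threshold without WT replicate 1 (0.0696), WT replicate 2 (0.0622) or KO replicate 1 (0.0501) and when every library was thinned down to the total of WT replicate 3 (0.0810). Over the 13 alternatives of edgeR, voom/limma and DESeq2 the adjusted p of *ATM* ran from 0.00407 to 0.102. *ATM* starts 406 bases from *NPAT*, a histone gene regulator transcribed in the opposite direction. *NPAT* had a log2 change of 0.12 (edgeR, adjusted p = 0.0679), and the ratio of *ATM* to *NPAT* counts lay between 1.85 and 2.08 in WT and between 1.89 and 2.05 in KO.

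*PRKDC*, which encodes the catalytic subunit of DNA-PK, lies on chromosome 8 from 47773111 to 47960178 and had the highest counts of the members. Its level was 692, 865 and 807 CPM in WT and 814, 742 and 833 CPM in KO. The spread within WT, 11.1% of the mean, was the largest of the tested members and covered all KO libraries. The log2 change was 0.02 with a 95% interval of -0.11 to 0.14 (adjusted p = 0.834, edgeR). Its sign turned without WT replicate 1 (-0.08), KO replicate 1 (-0.0028) or KO replicate 3 (-0.02). The neighbouring *MCM4*, a subunit of the replicative helicase whose start is 7 bases from that of *PRKDC*, decreased (log2 change -0.21, edgeR, adjusted p = 3.4e-04). The ratio of *PRKDC* to *MCM4* counts was 1.95, 2.18 and 2.17 in WT and 2.51, 2.27 and 2.60 in KO. This pair and *ATM* with *NPAT* were chosen after their values were seen.

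*CHEK1*, at chromosome 11 (plus strand), 125625163 to 125676255, encodes CHK1, the effector kinase of ATR. WT libraries had 70.4, 70.8 and 68.5 CPM, and KO libraries had 53.8, 47.7 and 51.7 CPM. The groups were far apart compared with their spread. The mean decreased from 69.9 ± 1.21 to 51.1 ± 3.10 CPM (SD, n = 3 each). In the edgeR fit the level fell by 27.1%, or by 0.46 ± 0.0554 (SE) on the log2 scale (adjusted p = 1.36e-08, edgeR). The log2 change stayed between -0.50 and -0.41 when any library was left out.

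*CLSPN*, which encodes claspin, the adaptor through which ATR reaches CHK1, lies on chromosome 1 from 35720218 to 35769978. It was found at 72.7, 76.3 and 77.1 CPM in WT and at 59.5, 57.1 and 57.3 CPM in KO. In the edgeR fit the level fell by 22.9%, a log2 change of -0.38 (SE 0.0524, edgeR adjusted p = 1.99e-07), without overlap. *TIMELESS*, on chromosome 12 from 56416363 to 56449426, encodes a fork protection protein that supports CHK1 activation. It had 199, 203 and 194 CPM in WT and 168, 173 and 161 CPM in KO, again without overlap, with a log2 change of -0.25 (SE 0.0473, edgeR adjusted p = 3.14e-05).

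*WEE1* and *PKMYT1* encode the kinases that inhibit the cyclin-dependent kinases directly. *WEE1*, on chromosome 11 from 9573670 to 9593457, had 75.5, 76.8 and 75.6 CPM in WT and 65.0, 62.0 and 69.7 CPM in KO. The WT libraries were nearly equal and all KO libraries were lower, with a log2 change of -0.22 (SE 0.0536, edgeR adjusted p = 7.22e-04). *PKMYT1*, on chromosome 16 from 2968024 to 2980479, had 65.0, 65.0 and 69.8 CPM in WT and 59.6, 61.7 and 55.0 CPM in KO. The groups did not overlap, but they were closest to each other among the lowered members, and the log2 change of -0.17 (SE 0.0557, edgeR adjusted p = 0.00856) became -0.13 without KO replicate 3 (edgeR, adjusted p = 0.0769, the highest of a range from 0.00402 over 13 alternatives). *PKMYT1* overlaps *PAQR4*, a gene of the opposite strand, over 4215 bases, which is the whole span of *PAQR4*, and *KREMEN2* over 357 bases. *PAQR4* also had a negative log2 change of -0.22 (edgeR, adjusted p = 0.00109). The library kit kept the strand, but the strand setting of the count is not given in the sources used here, so the counts of *PKMYT1* and *PAQR4* may not be independent.

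**Figure D2:**
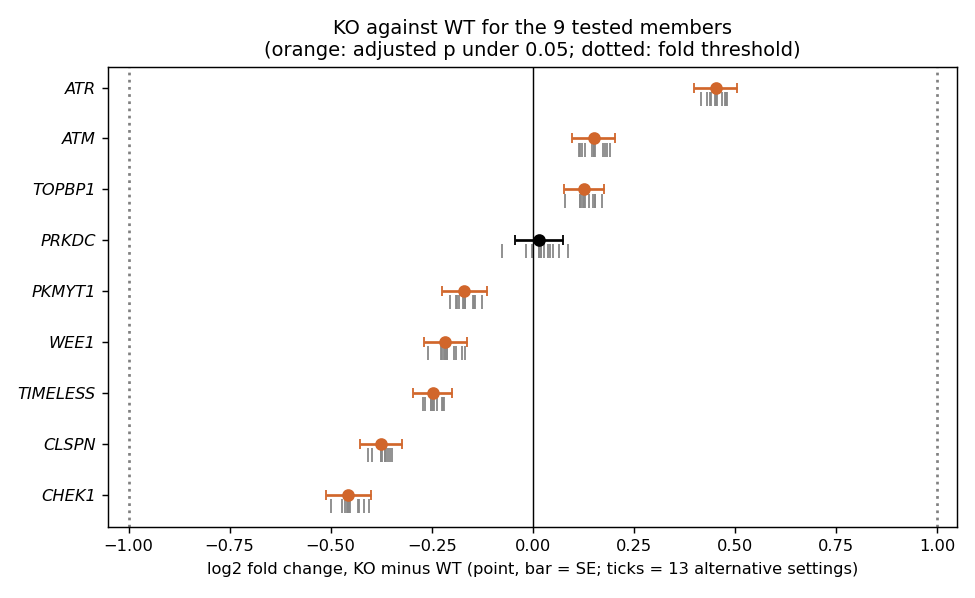
Log2 fold change of KO against WT (horizontal axis) for the 9 tested members, with points for the edgeR estimate, bars for its standard error and grey ticks for 13 alternative settings; orange points have an adjusted p under 0.05. All estimates lie inside the dotted lines at 1 and -1, from -0.46 for CHEK1 to 0.45 for ATR, and only PRKDC has ticks on both sides of 0.

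*ATRIP*, the obligate partner of ATR, on chromosome 3 from 48446710 to 48467645, had 9, 6 and 4 counts in WT and 8, 5 and 7 in KO. These counts, a mean of 0.296 CPM in WT (SD 0.0847) and of 0.302 CPM in KO (SD 0.106), were too low for the filter, and no fold change is given. In GENCODE release 44, *ATRIP* contains the whole of *TREX1*, an exonuclease gene, on the same strand over 1835 bases, and *TREX1* was listed at 0 counts in all 6 libraries. Reads that fall in more than 1 gene are left out by some settings of HTSeq-Count. The setting and the annotation release behind these counts are not given in the sources used here, so the part that overlapping gene models have in these values was not tested, and they cannot be read as an absence of *ATRIP* RNA. Of the other members, *CHEK1* overlaps *STT3A*, an oligosaccharyltransferase gene, by 53 bases of the same strand, and *C11orf65*, which shares 60580 bases with *ATM* on the opposite strand, had 102 counts in all libraries together, 0.901% of those of *ATM*.

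By level per kilobase of the union of exons, the order of the members was the same in both groups, from *TIMELESS* (33.9 CPM per kilobase in WT) through *PRKDC* (27.1), *TOPBP1* (21.7), *PKMYT1* (13.4), *CHEK1* (12.5), *WEE1* (8.21), *CLSPN* (7.86), *ATR* (2.13) and *ATM* (2.01) to *ATRIP*. In WT the ranges of *ATR* and *ATM* overlapped, from 2.06 CPM per kilobase in the lowest *ATR* library to 2.14 in the highest *ATM* library. In KO they no longer did, since the lowest *ATR* library had 2.84 and the highest *ATM* library 2.34 CPM per kilobase. In KO the ranges of *TIMELESS* and *PRKDC* overlapped instead. The union of all annotated exons is 39184 bases for *ATM*. With the longest transcript, 13130 bases for *ATM*, the WT levels were 6.01 CPM per kilobase for *ATM*, 7.11 for *ATR*, 16.9 for *CHEK1*, 14.6 for *WEE1*, 28.9 for *PKMYT1* and 58.5 for *PRKDC*, which then ranked first. *ATR* and *ATM* were the lowest of the tested members by both lengths in WT. By the longest transcript the order did change in KO. *ATR* (9.77 CPM per kilobase) stood above *CLSPN* (6.81) and *TOPBP1* (28.3) above *PKMYT1* (25.5), without overlap and opposite to WT. *WEE1* (12.6) and *CHEK1* (12.4) overlapped.

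Ratios of counts within a library do not depend on how libraries are scaled, and 4 pairs of genes were compared in this way. *CHEK1* had 1.22, 1.18 and 1.22 counts for each count of *ATR* in WT libraries and 0.644, 0.617 and 0.662 in KO libraries. All KO ratios lay below all WT ratios. Counts are not levels per length, by which *CHEK1* was above *ATR* in both groups. The ratio in KO was 0.532 of that in WT (log2 difference -0.91, within-group SD 0.0296 in WT and 0.0509 in KO). *CLSPN* and *CHEK1* decreased side by side, with between 1.03 and 1.12 *CLSPN* counts per *CHEK1* count in WT and between 1.11 and 1.20 in KO, and their ranges overlapped (log2 difference 0.08). The ratio of *PKMYT1* to *WEE1* also overlapped, at 0.846 to 0.924 in WT and 0.788 to 0.996 in KO (log2 difference 0.03). *TIPIN*, whose product pairs with TIMELESS, decreased more than its partner: there were 0.175, 0.191 and 0.196 *TIPIN* counts per *TIMELESS* count in WT and 0.130, 0.137 and 0.132 in KO (log2 difference -0.49). Exact permutation tests of the log2 ratios, two-sided, gave p = 0.1 for *CHEK1* to *ATR* and for *TIPIN* to *TIMELESS*, the smallest p possible, p = 0.3 for *CLSPN* to *CHEK1* and p = 0.9 for *PKMYT1* to *WEE1*. Over 7 ratios in all, counting 3 chosen after their values were seen, the lowest adjusted p of these exact tests was 0.175, so the design could not pass the threshold.

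**Figure D3:**
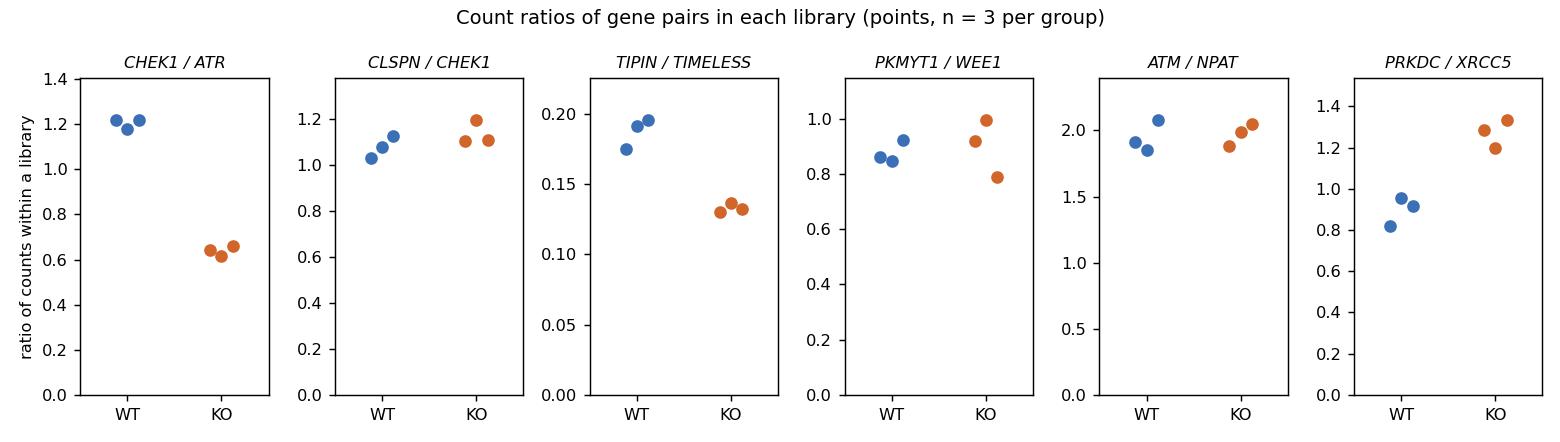
Ratio of the counts of 2 genes within each library (vertical axis, from 0) for 6 pairs, with the 3 WT and 3 KO libraries as points. CHEK1 to ATR lies at 1.18 to 1.22 in WT and 0.617 to 0.662 in KO, TIPIN to TIMELESS is lower and PRKDC to XRCC5 higher in every KO library, and the other 3 pairs overlap.

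The sequences around the starts of the 3 members of the CHK1 arm that decreased most are shown with those of *ATR* and *ATM*, so that the regulatory letters can be compared. Each runs 5′ to 3′ on the strand of the gene, from 130 bases before the RefSeq start to the first 20 bases of the transcript, on GRCh38.p14. Capitals mark matches to an E2F core, a CHR motif or a CCAAT box, each sought on both strands. The E2F core was spelled TTCGCGC, with TTGGCGC as the next spelling, TTCCCGC as another and TTGCCGC as the last, the CHR motif was TTTGAA or, with a CpG, TTCGAA, and the CCAAT box was CCAAT. No spelling of one motif contains another. E2F, CHR and CCAAT elements are known from promoters of genes of the cell cycle.
CHEK1, chr11:125626099-125626248, plus strand: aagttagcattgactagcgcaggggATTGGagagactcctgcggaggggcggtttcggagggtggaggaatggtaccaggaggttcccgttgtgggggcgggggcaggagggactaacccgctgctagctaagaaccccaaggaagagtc
CLSPN, chr1:35769959-35770108, minus strand: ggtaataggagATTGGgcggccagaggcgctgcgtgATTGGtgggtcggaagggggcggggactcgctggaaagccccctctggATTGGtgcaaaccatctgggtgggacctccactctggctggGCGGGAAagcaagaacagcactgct
TIMELESS, chr12:56449407-56449556, minus strand: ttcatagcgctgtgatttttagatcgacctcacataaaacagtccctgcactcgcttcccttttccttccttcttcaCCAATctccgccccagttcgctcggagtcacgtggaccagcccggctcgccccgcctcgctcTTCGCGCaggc
ATR, chr3:142578714-142578863, minus strand: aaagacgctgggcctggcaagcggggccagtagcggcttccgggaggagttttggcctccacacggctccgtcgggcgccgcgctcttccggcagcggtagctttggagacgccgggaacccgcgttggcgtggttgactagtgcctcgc
ATM, chr11:108222937-108223086, plus strand: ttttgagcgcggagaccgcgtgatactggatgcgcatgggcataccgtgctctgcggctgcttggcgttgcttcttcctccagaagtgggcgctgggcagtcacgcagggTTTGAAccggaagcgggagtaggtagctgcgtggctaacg
*CLSPN* held CCAAT boxes 119, 94 and 46 bases before its start, counted to the first letter in reading order, all on the opposite strand, and an E2F core 5 bases before it. *TIMELESS* held a CCAAT box 53 bases before the start and an E2F core that began 9 bases after the first transcribed base. *CHEK1* held a CCAAT box 105 bases before the start. The *ATR* window had none of these letters, and the printed *ATM* window had only a CHR motif, 20 bases before its start. *TOPBP1*, which was higher in KO and whose sequence is not shown, held overlapping E2F cores 10 and 7 bases before its start. An E2F core was thus found in lowered and in raised members. Over the full windows, 250 bases before to 50 after each start, 3 of 11 member windows had an E2F core, against 13.0% of all 35116 windows. A CHR motif was found in 1 of the 11 (16.4% of all windows) and a CCAAT box in 9 (34.6%). The 11 windows belong to 7 members, of which 3, 1 and 5 had these motifs in this order. Some members have several windows, and those of *CHEK1* and *ATM* overlap. *WEE1*, *PKMYT1* and *PRKDC* are not among the 7. These matches describe letters and not binding.

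To place the members in their pathway, 68 tested genes of 7 lists around them were counted. The lists were written with earlier results of these data known, so their shares are a description and no test of the pathway. At an adjusted p under 0.05 (edgeR), 14 of the 68 (20.6%) were higher in KO and 34 (50.0%) lower, against 31.9% and 32.0% of all genes tested, and 3 of the 34 passed the fold threshold. Their median log2 change was -0.11, whereas that of all genes tested was 0.00. No list had more genes higher than lower, and the lists differed in the size of their medians.

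The sensors upstream of ATR were mixed. Of 14 tested genes for the checkpoint clamp, its loaders and RPA, 4 were higher and 7 lower (median -0.09). *RAD17*, the subunit that loads the clamp, rose from 36.7 ± 1.79 to 51.6 ± 2.49 CPM (SD, n = 3 each), with a log2 change of 0.48 (SE 0.0596, edgeR adjusted p = 2e-08), close in size to that of *ATR*. *RAD9B*, a clamp paralogue with only 14 to 53 counts per library, had 0.93 (SE 0.23). The clamp subunit *HUS1* decreased (-0.44), as did *RHNO1* (-0.23), whose product links the clamp to TOPBP1. Among 9 partners at the fork, 6 were lower and 1 higher (median -0.18). *TIPIN* fell from 37.2 ± 2.09 to 22.2 ± 1.23 CPM (SD, n = 3 each), a log2 change of -0.73 (SE 0.0672, edgeR adjusted p = 3.08e-11), *MCM10*, a helicase activator, had -0.60, and *DBF4*, the activator of the CDC7 kinase, was the exception with 0.25.

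On the ATM side, 6 of 12 genes were lower, 1 was higher and 5 did not pass the test (median -0.11). *MRE11*, the nuclease subunit of the complex that activates ATM, and *CHEK2*, the kinase that ATM activates, were the members of this list past the fold threshold, with log2 changes of -1.66 and -1.50. *RAD50*, which forms that complex with *MRE11* and *NBN*, also decreased (-0.57, edgeR, adjusted p = 1.86e-11). *NBN*, *BRCA1*, *MDC1*, *TP53BP1* and *H2AX* had log2 changes between -0.07 and 0.06 and did not pass. These 5 and *RAD50* were named after their values were seen. *RNF168*, a ubiquitin ligase at breaks, was the one that rose (0.29). *CHEK2* has similar pseudogene copies, among which reads may be shared.

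DNA-PK is formed by DNA-PKcs with the Ku heterodimer, and the genes of the 2 parts differed. *XRCC5*, the large Ku subunit, decreased from 876 ± 30.0 to 626 ± 7.10 CPM (SD, n = 3 each), a log2 change of -0.48 (SE 0.0468, edgeR adjusted p = 1.05e-10). *XRCC6*, the small subunit, named after its values were seen, had -0.41. *PRKDC* counts per *XRCC5* count were 0.820, 0.956 and 0.918 in WT and 1.28, 1.20 and 1.34 in KO, a log2 difference of 0.50 without overlap (exact permutation test, two-sided, p = 0.1); this ratio was also chosen after the values were seen. Of the 6 tested genes of this list, 3 were lower and 2 higher. *LIG4*, the ligase of end joining, had a log2 change of -0.43, *DCLRE1C*, the Artemis nuclease that DNA-PKcs activates, 0.48, and *XRCC4* 0.20. *NHEJ1* had too few counts to be tested.

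The other PI3K-like kinases and the chaperones that stabilise the family were split evenly, with 2 of 8 higher and 2 lower (median 0.00 to 2 decimals). *SMG1* and *TRRAP* had log2 changes of -0.18 and -0.17 with overlapping groups, and *TELO2* and *RUVBL1* rose by 0.35 and 0.25 on the log2 scale. No direction was thus shared by the kinases of this family, with *ATR* at 0.45, *ATM* at 0.15, *PRKDC* at 0.02 and *MTOR* at -0.10 (edgeR, adjusted p = 0.1 for *MTOR*, named after its value was seen).

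Downstream, at the cell cycle engine, 6 of 10 genes were lower and 1 higher (median -0.48), the largest shift among the lists. *CCNE2*, a cyclin of S phase entry, passed the fold threshold. It had 77, 113 and 43 counts in WT libraries and 16, 16 and 6 in KO libraries, a log2 change of -2.63 (SE 0.235, edgeR adjusted p = 1.69e-11). *CCNB2*, a mitotic cyclin, decreased by less (-0.71), and so did *CDK1* (-0.63) and *CDK2* (-0.68), the kinases that WEE1 inhibits, the former also a target of MYT1, which were named after their values were seen. *CDC25B* rose (0.31), while *CDC25A* and *CDC25C* did not pass the test (0.06 and -0.08) and were also named after their values were seen. Lower *WEE1* and *PKMYT1* were thus found beside lower *CDK1*. Of 9 genes of checkpoint recovery, 4 were lower and 3 higher (median -0.02). *AURKA*, the mitotic kinase, had -0.56, *PPP1CC*, a phosphatase subunit, -0.32, *BTRC*, the ubiquitin ligase subunit that marks claspin and WEE1 for degradation, 0.21, and *PPM1D*, the phosphatase that reverses ATM signals, 0.61 (SE 0.0536, adjusted p = 1.31e-11, edgeR).

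**Figure D4:**
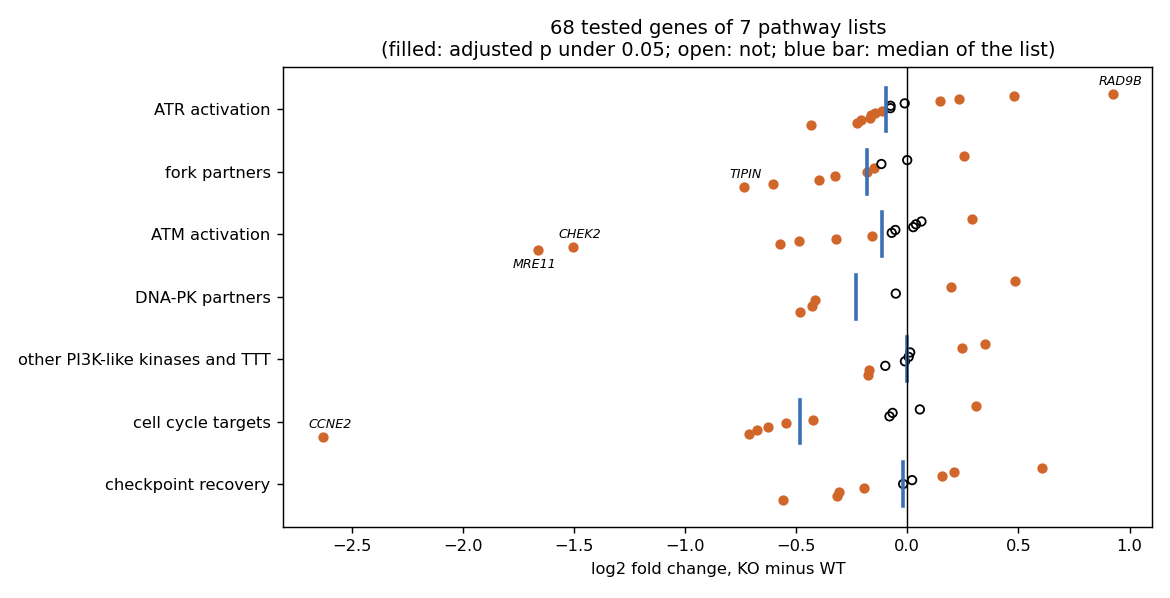
Log2 fold change of KO against WT (horizontal axis) for the 68 tested genes of 7 pathway lists, 1 row per list; filled points have an adjusted p under 0.05, open points do not, and the blue bar is the median of the list. The medians run from -0.48 for the cell cycle targets to 0.00 for the other PI3K-like kinases, and MRE11, CHEK2 and CCNE2 lie below -1.

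The members lie on 6 chromosomes and range in span from 12.5 kb for *PKMYT1* to 187 kb for *PRKDC*. Among the tested members, those over 100 kb, *ATM* (146 kb), *ATR* (130 kb) and *PRKDC*, had log2 changes of 0.15, 0.45 and 0.02. The groups overlapped for *ATM* and *PRKDC*, and *PRKDC* did not pass the test. All lowered members spanned 51.1 kb or less. Genes of the pathway lists were not sorted by span, and the part of gene length was not tested. Over all genes tested, the median log2 change was -0.03 in the class of gene span that holds *ATM* and *ATR*, of 10 equal classes, and 0.00 in the longest class, which holds *PRKDC*. The 5 lowered members had between 9 and 29 exons in their reference transcript. *TOPBP1*, called higher, lay within that range with 28, and *ATM*, *ATR* and *PRKDC* had 63, 47 and 86.

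The study reports a doubling of DNA content and of chromosome number in the clone. Its composite karyotype lists a gain of chromosome 3 among other gains and losses. The values of genes beside each member were therefore set out as well. The 876 tested genes of chromosome 3, which holds *ATR*, *TOPBP1* and *ATRIP*, had a median log2 change of 0.25. The 20 nearest tested genes of *TOPBP1* had a median of 0.20, with 10 higher and 3 lower, and *TOPBP1* at 0.13 lay within their middle range. Those of *ATR* had a median of -0.33, with 4 higher and 10 lower, and 2 of the 20 exceeded *ATR*. These were *XRN1*, the tested gene directly beside *ATR*, at 0.75, and *SLC9A9*, 10 tested genes away on the other side, at 0.70. Both were named after their values were seen. On chromosome 11, with a median of -0.03, the neighbours of *WEE1* had a median of -0.24, close to the -0.22 of *WEE1*, those of *ATM* 0.07 and those of *CHEK1* -0.08, of which 15 of 20 exceeded *CHEK1*. The neighbours of *CLSPN* had a median of -0.18, with 16 of 20 above *CLSPN*, and those of *TIMELESS*, *PKMYT1* and *PRKDC* had -0.14, -0.07 and 0.12. The part of copy number in any of these values was not tested.

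**Figure D5:**
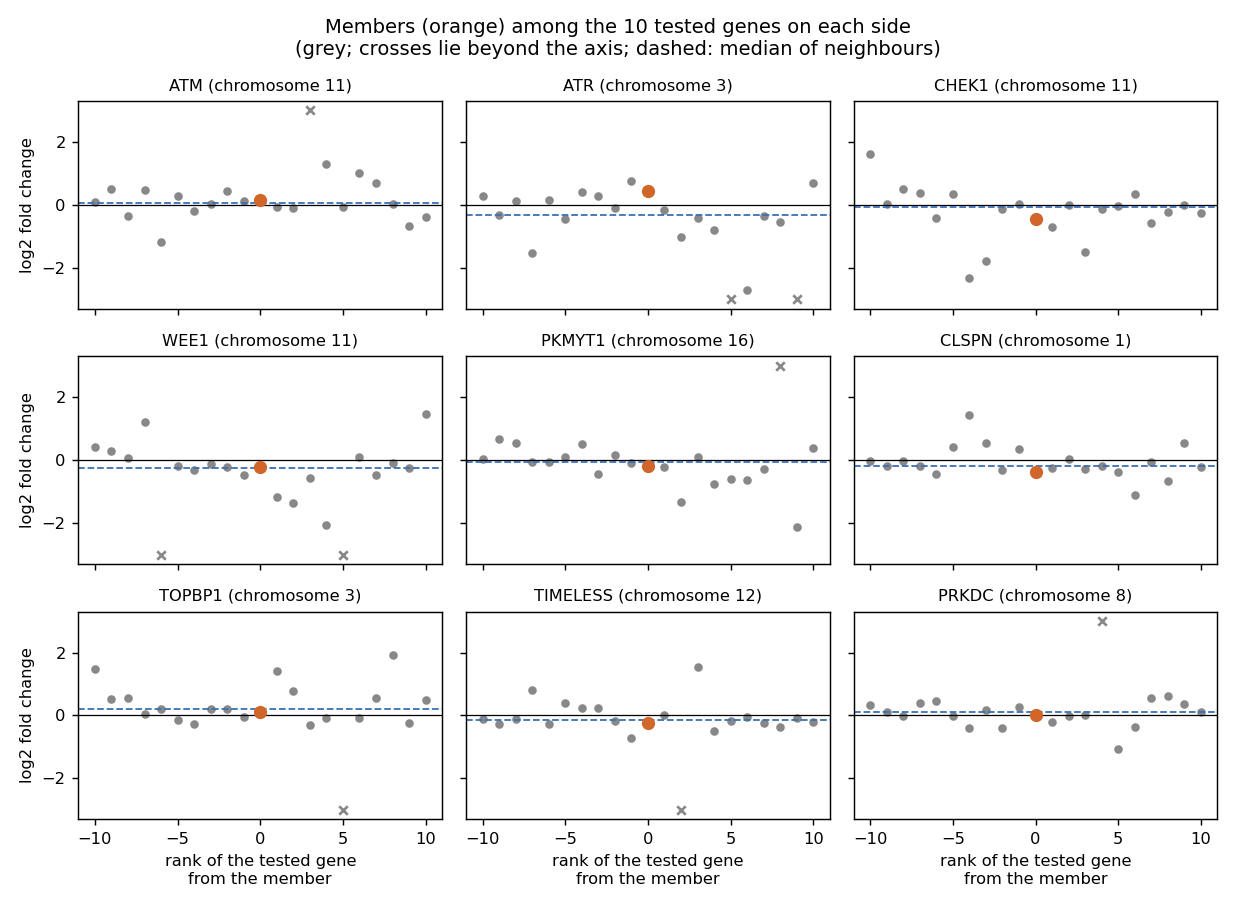
Log2 fold change of KO against WT (vertical axis) for each of the 9 tested members (orange) and the 10 tested genes on each side (grey, by rank along the chromosome), with crosses for values beyond 3 or -3 and a dashed line at the median of the neighbours. ATR at 0.45 lies above a neighbourhood with a median of -0.33, though 2 of its neighbours lie higher. Every other tested member lies closer to the median of its own neighbours, WEE1 closest of all.

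Genes whose pattern over the 6 libraries was most like that of a member were found by the root mean square difference of log2 CPM after centring each gene on its own mean. For *ATR* these were *BMPR1A*, a lncRNA with the identifier ENSG00000268858, and *DYRK4*, at 0.0248, 0.0256 and 0.0269. For *CHEK1* they were *CCDC88A*, *HDGFL3* and *TMEM123*, at 0.0208 to 0.0217. *ZKSCAN5*, *LPIN2* and *APOBEC3D* were nearest to *WEE1* (0.0157 to 0.0205), and *ZNF92*, *GDPGP1* and *NKTR* to *ATM* (0.0246 to 0.0254). Such likeness was common: 947 genes lay within 0.1 of *ATR*, 965 within 0.1 of *CHEK1*, 2233 within 0.1 of *WEE1* and 1840 within 0.1 of *ATM*. Among the members, *CLSPN* was the nearest to *CHEK1*, at rank 205 of 16197 (0.0643), *TOPBP1* the nearest to *ATM*, at rank 588, and *TIMELESS* the nearest to *WEE1*, at rank 1218. *ATR* had no member closer than rank 3014, that of *TOPBP1*.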

How the data were processed

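RNA-seq of 3 WT and 3 CDK12 KO libraries of A2780 cells was analysed, with groups taken from the genotype label. The authors deposited raw counts per Ensembl gene. Per the study's methods and the submitters' processing notes, stranded single-ended 75 bp reads were checked with FastQC, aligned with STAR to GRCh38 and counted with HTSeq-Count; versions, annotation release and strand setting are not given in the sources used here. Identifiers without version were matched to GENCODE release 44, which holds 56321 of them (93.1%).

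The log2 change of KO over WT was fitted with edgeR 4.0.16 under R 4.3.3 (filterByExpr with a minimum count of 10 and a minimum total of 15, TMM, quasi-likelihood test, two-sided, Benjamini-Hochberg over 16198 genes). CPM used TMM-scaled totals. The biological coefficient of variation was 4.35%. Total counts are given with the results. Alternatives were voom/limma (limma 3.58.1), DESeq2 1.42.0, other size factors and filters, thinning to the smallest total and the omission of each library. Simulated counts of 16198 genes were tested in the same layout, with changes planted in genes of at least 100 expected counts. With edgeR, 87 of 100 of size 0.3 and all 100 of size 1 (log2) were found, with 8 false calls. Only these genes were changed, whereas 31.9% of tested genes were called higher and 32.0% lower in the real data. The share found and the false calls therefore do not carry over to the real comparison.

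The members, the pathway lists and the genes named (all members, list genes past both thresholds or among the 2 most positive and 2 most negative changes with an adjusted p under 0.05, overlapping or divergent neighbours, and the 3 genes most like *ATM*, *ATR*, *CHEK1* and *WEE1*) were chosen with earlier results of these data known. List genes named outside this rule are marked as such in the text. Promoter windows come from RefSeq on GRCh38.p14. Reads, splicing, polyadenylation and proteins were not analysed here. Python 3.11.15 with pandas 2.3.3 was used for the remaining steps.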

Additional observations from a re-analysis of the deposited data

How the results depend on the processing

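No paired analysis was possible because the labels number the libraries 1 to 6 and tie no WT library to a KO library. The directions of *ATR*, *CHEK1*, *CLSPN*, *TIMELESS* and *WEE1* and their calls held in all 13 alternatives of the edgeR, voom/limma and DESeq2 comparison, with *ATR* between 0.42 and 0.48 and *CHEK1* between -0.50 and -0.41 on the log2 scale. *PKMYT1*, *ATM* and *TOPBP1* kept their direction but lost the call in 1, 5 and 4 alternatives. The number of members higher in KO was 1 at an adjusted p under 0.01 and between 1 and 3 with a library left out; the number lower was between 4 and 5. That of list genes was between 12 and 14 higher and between 29 and 35 lower. The log2 fold change of *PRKDC* turned to -0.0763 without WT replicate 1, -0.0028 without KO replicate 1 and -0.0168 without KO replicate 3, and was at most 0.086 with any other library left out. With thinned libraries the log2 ratio of *CHEK1* to *ATR* differed by -0.855 and that of *TIPIN* to *TIMELESS* by -0.417. With a library left out the range was -0.935 to -0.884 for *CHEK1* to *ATR*, -0.542 to -0.46 for *TIPIN* to *TIMELESS*, 0.0378 to 0.106 for *CLSPN* to *CHEK1* and -0.0433 to 0.126 for *PKMYT1* to *WEE1*, the negative value being without KO replicate 2. The causes were not tested. No ratio of *ATRIP* to *ATR* was computed, since *ATRIP* had at most 9 counts. Upper-quartile scaling moved the median of all genes by 0.03 (log2). WT replicate 3, with 11098400 counts, limits the precision of low genes such as *CCNE2* and *RAD9B*.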
